A study of Mus musculus with 16 samples.

Results

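Solute carriers are membrane proteins that move amino acids, sugars, nucleotides, ions and metabolites across cell and organelle membranes. The transcripts described here are the 92 genes, of 364 solute carrier genes in the table and 21177 genes in all, whose symbol followed the Slc naming pattern and whose best-covered interval had a mean CPM (reads scaled to library size) of at least 5. Slc7a11, Slc11a1, Slc11a2 and Slc40a1 were left out by the rule. The members were 19 genes of the Slc25a family and 73 others. The 19 are called mitochondrial carriers here by family name, not by the location or activity of each product. Slc9a3r1, which encodes a scaffold protein and not a carrier, entered by its symbol. The rule used the name and the mean CPM over all libraries, and no T-to-C rate. Just inside the minimum lay Slc25a15 with 5.01 CPM and Slc35e2 with 5.15 CPM, and just outside it Slc30a9 with 4.78 CPM and Slc9a4 with 4.75 CPM. The lactate carrier Slc16a1 (4.58 CPM) and the cationic amino acid carrier subunit Slc7a7 (4.36 CPM) also fell below it.

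The samples were mouse leukemia cells of 2 genotypes, WT and YBX1-/-, labelled as bone marrow of strain C57BL/6. In SLAM-seq, 4-thiouridine (4sU) built into new RNA is read as T-to-C changes. All cells had 50 µM 4sU for 24 h, were washed, and were then kept in medium with 10 mM uridine for 0, 0.5, 1, 3, 6, 12, 18 or 24 h (the chase) before TRIzol extraction and polyA library preparation. There was 1 library for each genotype and time, 16 in all, with no replicate. How the deletion was made, the origin of the leukemia and the age of the animals are not given in the sources used here.

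YBX1 is an RNA-binding protein that can hold mRNAs in a stable or translated state. Slc25a carriers sit mostly in the inner mitochondrial membrane and exchange ADP, ATP, phosphate, citrate and amino acids with the cytosol, while most other families work at the plasma membrane, in lysosomes or in the Golgi. The stability of a carrier mRNA is often set by elements in its 3′ untranslated region, such as AU-rich elements and Pumilio sites.

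By GENCODE M21 (mouse build GRCm38), the measured intervals of all 92 members lay wholly or almost wholly in UTRs of their own genes. The number of Ts in the annotated sequence equalled the deposited T content in all 92. Sites of short motifs were searched on the transcript strand only. The motifs were ATTTA and its longer form TATTTAT (AU-rich core, each TATTTAT also holding an ATTTA), TGTANATA (Pumilio recognition element), GGACT (a form of the m6A consensus) and AATAAA (polyadenylation signal). Some sites are given below because Slc38a2 kept the least label of the members with a CPM of at least 20 and Slc25a5, Slc25a3 and Slc25a4 kept much of it. Capitals mark the motif, and all sequences run 5′ to 3′ on the transcript strand (GENCODE M21, GRCm38).
Slc38a2 TATTTAT site 1, chr15:96687931-96687959, minus strand: aactgtactgtTATTTATagagcagcatt
Slc38a2 TATTTAT site 2, chr15:96687885-96687913, minus strand: ctatttttcaaTATTTATgataaactgta
Slc38a2 TGTANATA site 1, chr15:96687870-96687899, minus strand: ttatgataaacTGTACATAtattgtccata
Slc38a2 TGTANATA site 2, chr15:96687845-96687874, minus strand: ccatatgtattTGTAAATAgattgtatata
Slc38a2 TGTANATA site 3, chr15:96687834-96687863, minus strand: tgtaaatagatTGTATATActgttggaatt
Slc25a4 TATTTAT site, chr8:46207282-46207310, minus strand: gaagtattttgTATTTATtttacatttag
Slc25a5 AATAAA site 1, chrX:36798761-36798788, plus strand: tcactcctgatAATAAAaaattgaagaa
Slc25a5 AATAAA site 2, chrX:36798777-36798804, plus strand: aaaattgaagaAATAAAaatacccaaaa
Slc25a3 AATAAA site, chr10:91116795-91116822, minus strand: acttaatgctaAATAAAcccatctattc

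The 2735-base interval of Slc38a2 held 5 ATTTA, 2 TATTTAT and 5 TGTANATA matches. The intervals of Slc25a5 (263 bases, 1 ATTTA), Slc25a3 (334 bases, 0 ATTTA) and Slc25a39 (435 bases, 0 ATTTA) held no TATTTAT and no TGTANATA, and that of Slc25a4 (666 bases) held 2 ATTTA and 1 TATTTAT. The Slc25a3 interval was protein-coding over 47.3% of its length in another transcript of the gene. That of Slc30a6 was so over 90.6%, the most of all members, and some other member intervals over smaller parts. Over all members, 73.9% of the intervals held ATTTA, against 71.4% of the 6016 intervals of all genes with a CPM of at least 5 and a sequence. TATTTAT was in 37.0% against 29.7%, TGTANATA in 23.9% against 27.5%, GGACT in 79.3% against 66.2% and AATAAA in 84.8% against 83.9%. Member intervals were longer, with a median of 1554 bases against 1241. Per kilobase the members held 1.58 ATTTA and 0.987 GGACT matches, against 1.82 and 0.959 in all genes.

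The rates of whole libraries set the frame for the members. Over all 6027 genes with a CPM of at least 5, the median rate at 0.5 h was 49.2% in WT and 36.6% in YBX1-/-, and at 24 h it was 0.885% and 0.741%. The table holds no level per library, so loss of Ybx1 RNA could not be checked. Ybx1 itself had rates of 5.08% to 61.4% in the WT libraries and 3.08% to 72.0% in the YBX1-/- libraries. The YBX1-/- 0 h library had values at both ends of the scale for some members: the peptide transporter Slc15a3 and the creatine transporter Slc6a8 were at 100%, and the zinc exporter Slc30a1 was at 0%. Depth per library is unknown, so an exact 0 can mean no converted read or few reads.

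Solute carrier transcripts lost their label over the chase at about the pace of all genes. A straight line over hours on log2(rate + 0.1 percentage points), fitted with limma, fell for 83 of 87 tested members in WT and for 84 of 87 in YBX1-/- (adjusted p under 0.05 over 7411 tested genes). Of all tested genes, which unlike the members had no CPM minimum, 95.2% fell in WT and 91.5% fell in YBX1-/-. The median slope of the tested members was -0.28 log2 per h in WT, against -0.27 for all tested genes, and -0.25 in YBX1-/-, the same to 2 decimals as for all. A fall of the rate can come from decay of labelled RNA or from new unlabelled RNA, and these cannot be told apart here. The members that did not pass were Slc26a10, Slc6a20b, the glucose-6-phosphate transporter Slc37a4 and the vesicular monoamine transporter Slc18a2 in WT, and in YBX1-/- they included Slc26a10 and Slc6a20b. The 5 untested members (Slc24a5, Slc38a10, Slc38a6, Slc25a30 and Slc30a1) had a rate above 0 in fewer than 12 of the 16 libraries.

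**Figure D1:**
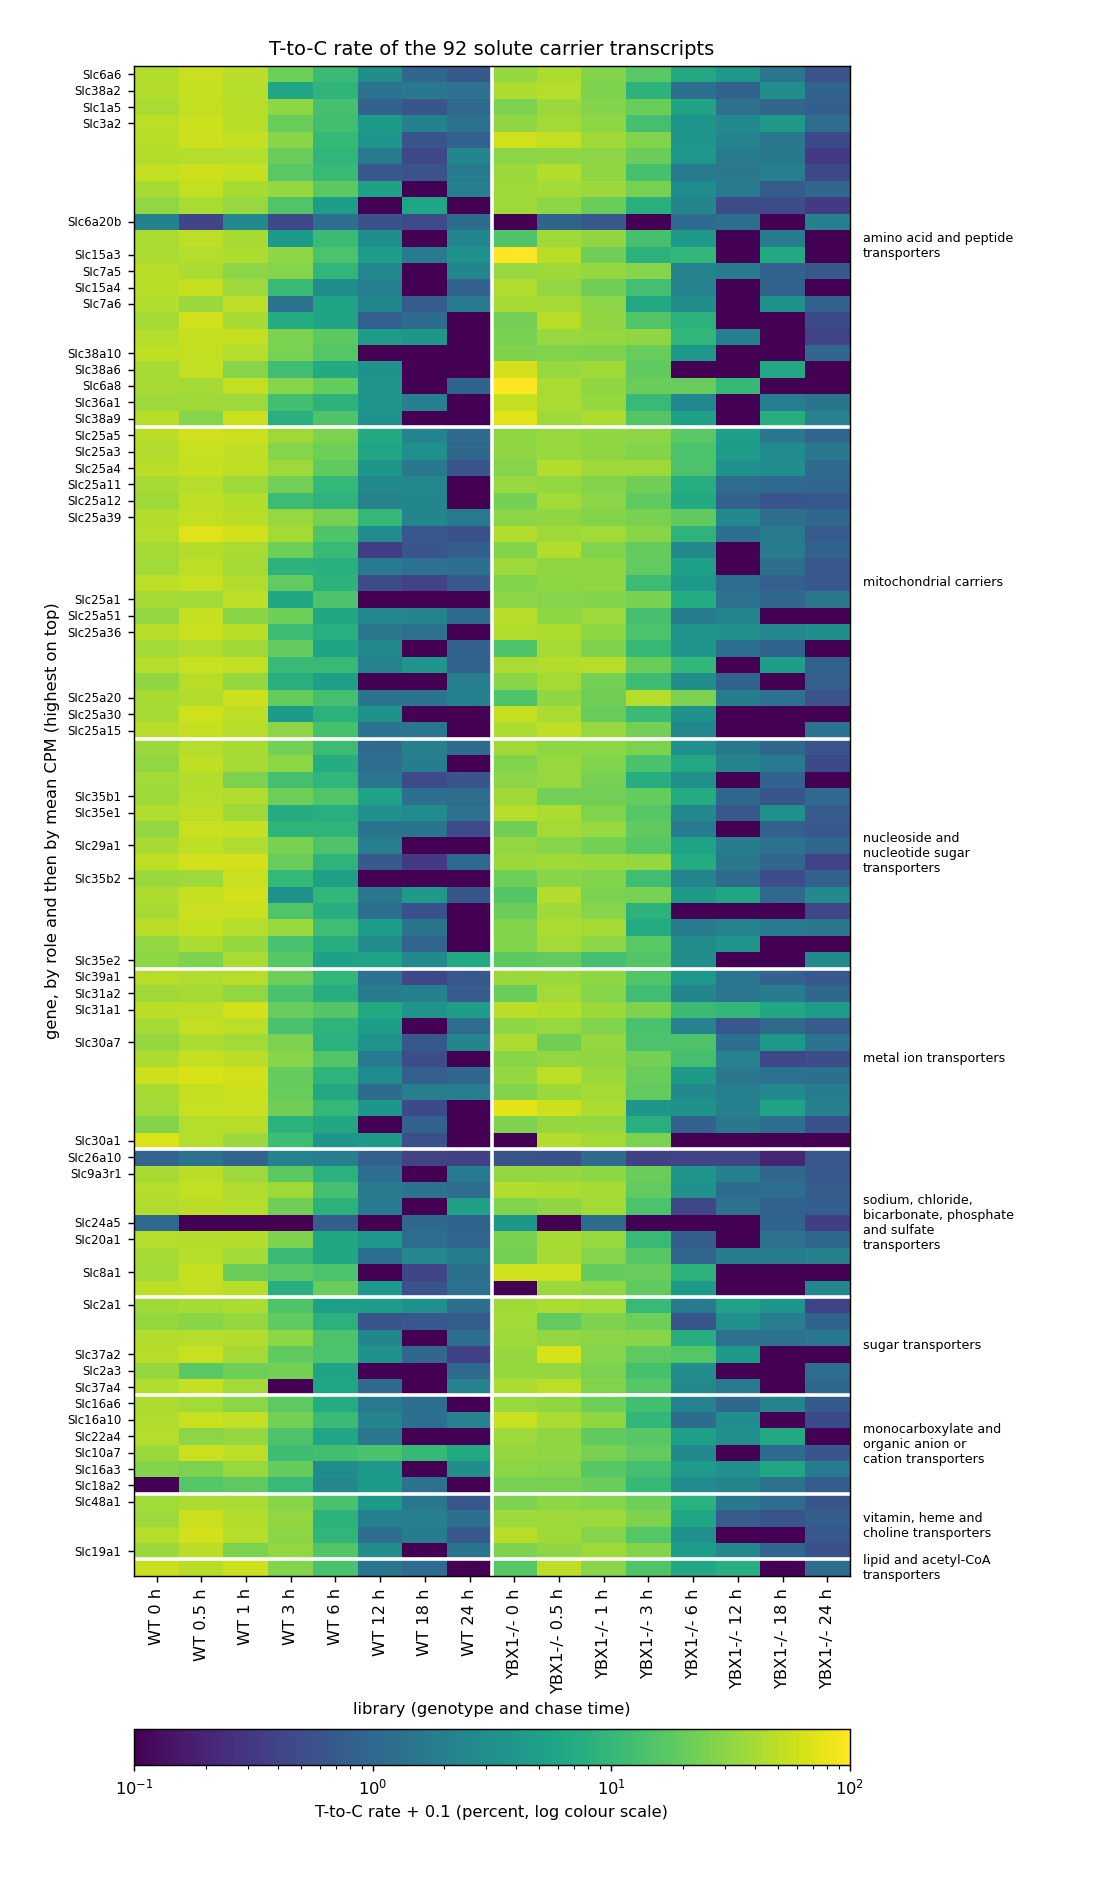
T-to-C rate plus 0.1 (percent, log colour scale) of the 92 members (rows, grouped by role and ordered by mean CPM, with names for those described in the text) in the 16 libraries (columns). Rates are bright from 0 to 1 h and dark from 12 h on in both genotypes, and 3 rows, Slc26a10, Slc6a20b and Slc24a5, are dark in every library.

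Slc25a5, the ADP/ATP carrier ANT2, had the highest mean CPM of all members at 211. Its rate in WT was 48.2, 60.9, 57.3, 37.4, 25.8, 6.80, 2.09 and 1.03% at 0, 0.5, 1, 3, 6, 12, 18 and 24 h. The 8 YBX1-/- rates were 30.9, 34.7, 30.5, 29.7, 17.2, 4.84, 1.47 and 0.943%. The YBX1-/- library was the lower one at all 8 times, while the YBX1-/- rate at 3 h was close to that at 1 h. The genome holds processed copies of Slc25a5, and reads shared with them could not be separated.

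Slc25a3, the mitochondrial phosphate carrier (79.8 CPM), had rates of 44.5, 55.5, 52.2, 28.6, 21.6, 5.87, 3.07 and 0.932% in WT in the order of the chase. In YBX1-/- the rates were 32.0, 34, 31.6, 27.6, 14.1, 4.38, 2.76 and 1.5%. Only at 24 h was the YBX1-/- library the higher one.
Slc25a39, a carrier for mitochondrial glutathione (21.2 CPM), had rates of 44.6, 53.2, 49.1, 34.3, 24.3, 9.95, 2.30 and 1.60% in WT. In YBX1-/- they were 30.4, 31.8, 27.5, 24.7, 18.7, 2.61, 1.19 and 0.926%. Both genotypes held over 18% at 6 h, when the median over all genes was 10.1% in WT and 4.55% in YBX1-/-.
Slc25a4, the ADP/ATP carrier ANT1 of heart and muscle (29.4 CPM), had rates of 49.5, 53.8, 51.5, 35.9, 18.4, 3.80, 1.55 and 0.542% in WT. In YBX1-/- they were 28.3, 45.3, 36.0, 36.6, 14.4, 3.17, 2.92 and 1.01%.

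The share of label kept was taken as the mean rate at 3 and 6 h in percent of the mean rate at 0.5 and 1 h, a measure chosen after the rates were seen. In WT it was 57.4% for Slc25a39, 53.5% for Slc25a5, 51.7% for Slc25a4 and 46.7% for Slc25a3, and in YBX1-/- it was 73.1%, 72.0%, 62.7% and 63.7%. The oxoglutarate carrier Slc25a11 kept 39.2% and 49.9%, and the aspartate-glutamate carrier Slc25a12, with the longest Slc25a interval (4092 bases), kept 20.8% and 37.2%. These 6 carriers, the Slc25a members with a CPM of at least 20, had a median of 49.2% in WT and 63.2% in YBX1-/-. The medians of the 16 other members at that level were 31.9% and 32.9%, and those of all 2037 genes at that level 38.9% and 43.6%. Apart from that of Slc25a12, the intervals of the 6 carriers were 263 to 666 bases long, against 527 to 5293 for the 16 others. The part of interval length in these shares was not tested.

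The less abundant mitochondrial carriers lay nearer to the other members. The 7 with a CPM of 10 to 20 had medians of 27.3% in WT and 30.3% in YBX1-/-, beside 32.2% and 28.0% for 24 other members. The 6 with a CPM of 5 to 10 had 24.7% and 26.9%, beside 30.1% and 29.2% for 30 others. Members and genes with a rate under 5% in every library are left out of these and the following medians. Across all 19 Slc25a members the median was 31.2% in WT and 37.2% in YBX1-/-, across 70 other members with a rate of 5% or more in some library 32.0% and 29.2%, and across all genes 33.4% and 35.2%. Of the 19, 8 lay above the median of all genes in WT and 10 in YBX1-/-. The carnitine-acylcarnitine carrier Slc25a20 had the highest single share, 133% in YBX1-/-, from rates of 31.6 and 22.4% at 0.5 and 1 h and 46.9 and 25.2% at 3 and 6 h. In WT its share was 31.2%.

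**Figure D2:**
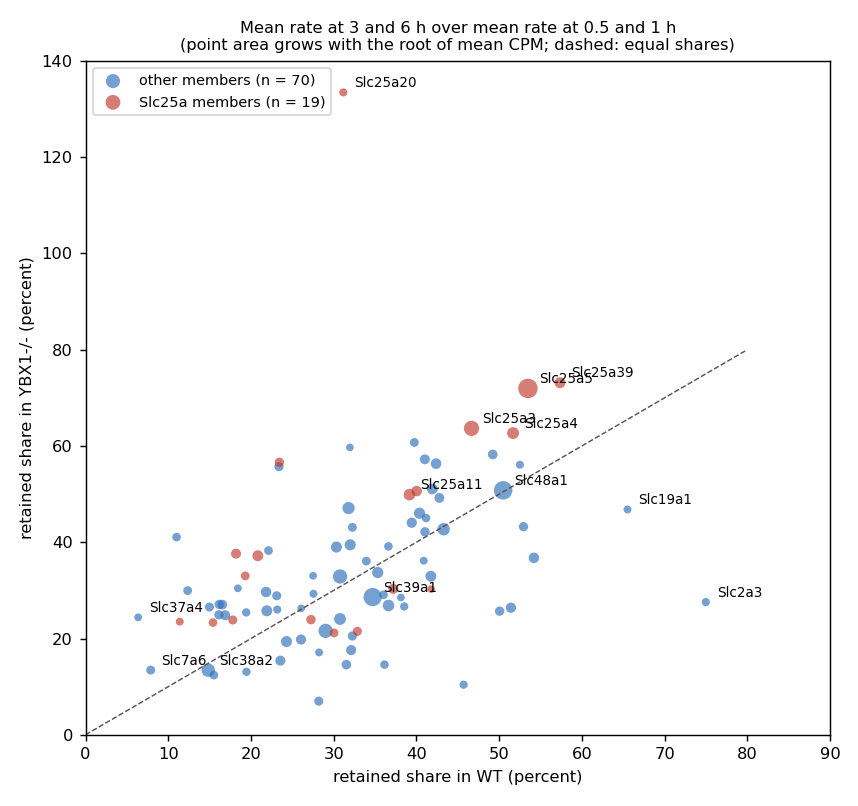
Share of label kept (mean rate at 3 and 6 h in percent of the mean at 0.5 and 1 h) in WT (x axis) and YBX1-/- (y axis) for 89 members, with the point area growing with mean CPM and the dashed line marking equal shares. Slc25a39, Slc25a5, Slc25a4 and Slc25a3 lie at the upper right with 46.7% to 57.4% in WT and 62.7% to 73.1% in YBX1-/-.

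Library by library, the median rate of the Slc25a members was above that of the other members in 12 of 16 libraries. The mean of the 16 log2 differences was 0.20 (SD 0.37). At 0 to 1 h the difference averaged 0.04 (SD 0.10, 6 libraries), and at 3 and 6 h it averaged 0.45 (SD 0.43, 4 libraries) and was above 0 in 4 of 4. The YBX1-/- 6 h library had the largest difference, 1.07, from 6.76% for Slc25a and 3.16% for the others. In WT at 6 h the medians were 10.7% and 8.88%. Leaving out the 6 h time point brought the mean difference down to 0.13, and at 24 h in WT the Slc25a median was the lower one, 0.680% against 0.855%.

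Set against all genes with a CPM of at least 5, the Slc25a median was higher in 9 of 16 libraries, by 0.02 on average on the log2 scale (SD 0.24). The other members were below all genes in 13 of 16 libraries and equal within 0.0001 log2 in 1, by -0.18 on average (SD 0.20). At 12 to 24 h the other members were below in 6 of 6 libraries, by -0.30 on average (SD 0.22). Rates of exactly 0 were frequent at those times: at 18 h in WT 19 of the 73 other members (26.0%), 4 of the 19 Slc25a members (21.1%) and 17.4% of all genes were at 0. Straight lines over hours gave a median slope of -0.30 log2 per h for 19 Slc25a members and -0.28 for 73 others in WT, and -0.25 for both in YBX1-/-. The difference of these medians was -0.0192 in WT and -0.00143 in YBX1-/-, and its sign changed with the time window.

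**Figure D3:**
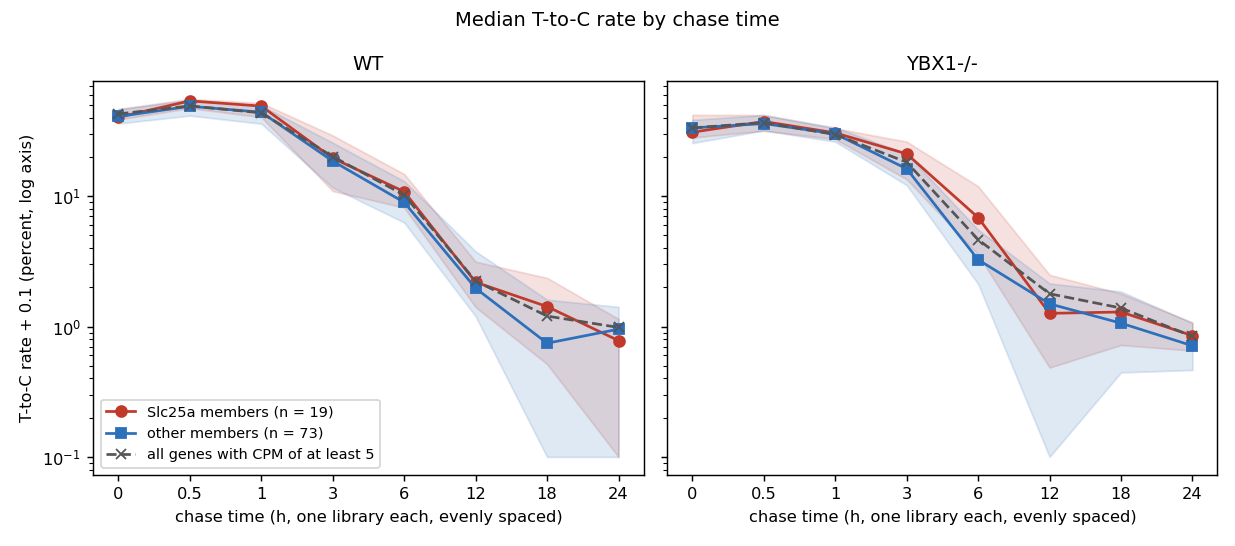
Median T-to-C rate plus 0.1 (percent, log axis) of Slc25a members, other members and all genes with a CPM of at least 5 over the chase in WT (left) and YBX1-/- (right), with shading from the lower to the upper quartile of the members. The lines run together to 1 h and are farthest apart at 6 h in YBX1-/- (6.76% against 3.16%) and at 18 h in WT (1.32% against 0.645%).

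Half-lives of the label were taken from an exponential with a constant floor, refitted 8 times with 1 time point dropped to give a range. Over tested members without those of low rate, the median was 2.91 h for 18 Slc25a members and 2.66 h for 67 others in WT, and 3.06 h and 2.48 h in YBX1-/-. Members with a rate under 5% in every library were also left out of the ranking that follows. One of them, Slc26a10, had 16.5 h in WT (13.4 to 21.5 h). Among the other tested members whose range lay within 3-fold, the longest in WT were those of Slc25a39 at 5.26 h (4.58 to 5.49 h) and Slc25a5 at 4.75 h (3.93 to 5.09 h). Next came the folate transporter Slc19a1 at 4.53 h (3.89 to 5.09 h) and Slc6a8 at 4.48 h (3.91 to 4.90 h). The shortest were those of Slc35e1 at 1.61 h (0.843 to 2.52 h), the lysosomal peptide and histidine transporter Slc15a4 at 1.64 h (0.943 to 2.03 h), Slc38a2 at 1.79 h (0.988 to 2.91 h) and the cation transporter Slc22a4 at 1.86 h (1.68 to 2.31 h). The untested Slc30a1 had 1.06 h (1.03 to 1.17 h). In YBX1-/- the half-life was 5.34 h for Slc25a39, 5.56 h for Slc25a5, 4.03 h for Slc19a1, 1.57 h for Slc35e1, 1.31 h for Slc15a4 and 1.37 h for Slc38a2. That of Slc6a8 was 0.395 h in YBX1-/-, where the fit includes the 0 h rate of 100%.

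Roles were given by Slc family, not by the substrate of each product. The amino acid and peptide transporters were the largest group outside the mitochondria, with 22 members, among them the creatine transporter Slc6a8. The aromatic amino acid transporter Slc16a10 was counted with the monocarboxylate and organic ion transporters. Slc38a2 (SNAT2), a sodium-coupled carrier of neutral amino acids induced by amino acid starvation (47.6 CPM), had WT rates of 44.9, 53.8, 45.8, 5.69, 9.09, 1.28, 1.51 and 1.24% in the order of the chase. In YBX1-/- they were 42.3, 45.7, 26.5, 8.56, 1.13, 0.794, 2.90 and 0.826%. Its kept share, 14.8% in WT and 13.4% in YBX1-/-, was far below that of the group (medians 30.8% and 26.5%). Some of its motif sites are printed above, picked because of this share, and the part of motifs in it was not tested. Other members with such sites kept unlike shares. Slc38a1 (2 TATTTAT and 4 TGTANATA) kept 35.3% and 33.7%, Slc25a17 (2 TATTTAT) 40.0% and 50.6%, and Slc7a1 (4 TGTANATA) 24.3% and 19.4%. Slc7a6, the light chain of the arginine and leucine exchanger y+LAT2, kept 7.88% in WT and 13.4% in YBX1-/-, and its WT rate was 1.21% at 3 h and 5.53% at 6 h.

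Slc3a2 (CD98hc, 29.3 CPM) is the heavy chain that carries Slc7a5 and Slc7a7 to the plasma membrane. Its WT rates were 50.7, 59.2, 47.5, 20.5, 12.3, 4.17, 1.97 and 1.21%, and its YBX1-/- rates 31.3, 37.8, 30.9, 13.0, 3.48, 2.45, 4.10 and 1.12%. Only at 18 h was the YBX1-/- library the higher one. Its kept share was 30.8% and 24.1%, and Slc7a5 (LAT1), its leucine-transporting light chain, kept 52.9% in WT and 43.2% in YBX1-/-. This order depended on the 3 h libraries. With 6 h alone over the same base, Slc7a5 kept 26.3% in WT and 5.85% in YBX1-/-, and Slc3a2 23.1% and 10.1%. By the mean of 3 and 6 h, the glutamine transporter Slc1a5 (ASCT2, 35.4 CPM) kept 43.3% and 42.7%, and the taurine transporter Slc6a6 (60.4 CPM) 30.8% and 32.9%.

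The metal ion transporters numbered 11. Slc39a1 (ZIP1), a zinc importer of the plasma membrane with 163 CPM, had WT rates of 47.0, 43.7, 47.0, 21.8, 9.69, 1.28, 0.346 and 0.555% and YBX1-/- rates of 35.6, 35.2, 31.2, 15.1, 3.89, 1.39, 0.777 and 0.596%. The YBX1-/- library was the lower one up to 6 h and the higher one from 12 h on. Slc31a1 (CTR1), the high-affinity copper importer, had WT rates of 48.2, 49.5, 62.4, 19.9, 15.7, 6.56, 3.47 and 4.66% and YBX1-/- rates of 48.3, 44.6, 35.1, 26.4, 11.1, 9.58, 6.14 and 4.47%. At 24 h both of its libraries were above 4%, when the median of all genes was under 1%. Slc31a2, its low-affinity relative (61.0 CPM), kept 29.0% and 21.6%. Slc30a1 (ZnT1), which exports zinc from the cell, was at 0% in 5 of 8 YBX1-/- libraries and was not tested.

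Among the sugar transporters, Slc2a1 (GLUT1, 15.3 CPM) kept 23.6% in WT and 15.4% in YBX1-/-. Slc2a3 (GLUT3, 6.61 CPM) had WT rates of 33.3, 17.0, 21.8, 23.6, 5.49, 0, 0 and 1.00% and YBX1-/- rates of 33.3, 33.3, 25.5, 13.3, 2.88, 0, 0 and 1.13%. Its kept share in WT, 75%, was the highest of the 89 members with a rate of 5% or more in some library, and in YBX1-/- it was 27.6%. The WT rates at 0.5 and 1 h that form its base were low beside the member median of 46.6%. Slc37a4 kept the least of these 89 in WT, 6.36%, with a rate of 0% at 3 h and 5.93% at 6 h.

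The heme transporter Slc48a1 (HRG1), second in abundance at 172 CPM, kept 50.5% in WT and 50.8% in YBX1-/-. Its WT rates were 38.1, 42.1, 41.6, 28.5, 13.8, 4.24, 1.5 and 0.560%, and its YBX1-/- rates were 26.4, 31.0, 28.4, 21.9, 8.24, 1.53, 1.08 and 0.532%. Slc35b1, an ATP/ADP exchanger of the endoplasmic reticulum, kept 41.0% and 57.2%. Slc16a3 (MCT4), a lactate exporter, kept 36.6% and 39.1%. Slc9a3r1 had WT rates of 0% at 18 h to 48.9% at 0.5 h, and without it the mean log2 difference between Slc25a and other members was 0.19.

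Across the 89 members with a rate of 5% or more in some library, the kept shares in WT and YBX1-/- had a Pearson correlation of 0.40 (Spearman 0.51), and across the 22 of them with a CPM of at least 20 it was 0.85 (Spearman 0.81). Over all genes the Pearson values were 0.61 (5967 genes) and 0.77 (2037 genes). These are descriptions across genes, which share the libraries and their depth and are not independent replicates. Among the 22, which include the Slc25a members at that CPM, the kept share was lower for longer intervals. The correlation to log2 length was -0.57 in WT and -0.55 in YBX1-/-, beside -0.46 and -0.48 over the 2037 genes. Among the 67 members with a CPM under 20 these correlations were -0.13 and -0.15.

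No member passed a test of a difference between the genotypes. The decay rate difference (how much the YBX1-/- slope exceeded the WT slope after subtraction of the library median, log2 per h, positive where loss was slower in YBX1-/-) passed for 0 of 87 tested members in limma, against 0.108% of all tested genes. At an unadjusted p under 0.05 there were 10 of 87 members and 929 of 7411 genes, the latter with no CPM minimum. The difference was above 0 for 48 members and below 0 for 39, with a median of 0.0046 beside 0.0037 for all tested genes. The labelling level difference (genotype term over all 8 times on the same values) also passed for 0 of 87 members in limma, and for 0% of all tested genes. Here 3 members and 415 genes had an unadjusted p under 0.05, and 40 members were above 0 and 47 below, with a median of -0.04 beside 0.01.

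The members with the smallest p for slower loss in YBX1-/- were the nucleoside transporter Slc29a1 (ENT1), the pyrimidine nucleotide carrier Slc25a36, the citrate carrier Slc25a1 and Slc35b2, the Golgi transporter of the sulfate donor PAPS. Slc29a1 had WT rates of 40.4, 52.2, 44.3, 24.8, 14.8, 1.87, 0 and 0% and YBX1-/- rates of 32.3, 28.6, 23.8, 16.7, 5.44, 1.77, 1.22 and 0.942%. Its YBX1-/- library was lower than WT up to 12 h and higher at 18 and 24 h, where WT was at 0. The difference was 0.18 log2 per h (SE 0.039, limma adjusted p 0.138). Slc25a1 likewise was at 0 in WT at 12, 18 and 24 h and at 1.26, 0.881 and 1.44% in YBX1-/- (0.18, SE 0.053, limma adjusted p 0.197). Slc35b2, also at 0 in WT from 12 h on, differed by 0.16 (limma adjusted p 0.275), and Slc25a36 by 0.16 (limma adjusted p 0.186).

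For faster loss in YBX1-/- the smallest p belonged to the sodium-calcium exchanger Slc8a1 (-0.17, SE 0.047, limma adjusted p 0.187), the mitochondrial NAD carrier Slc25a51 (-0.19, SE 0.052, limma adjusted p 0.187), Slc10a7 (-0.19, SE 0.072, limma adjusted p 0.293) and the phosphate-linked sugar transporter Slc37a2 (-0.12, SE 0.048, limma adjusted p 0.331). Slc8a1 and Slc25a51 had exact zeros in YBX1-/- at 18 and 24 h. Slc10a7, at chr8:78731639-78734003 on the plus strand, had WT rates of 35.7, 57.3, 50.3, 11.7, 12.1, 13.7, 10.2 and 6.54% and YBX1-/- rates of 33.3, 31.8, 24.6, 19, 2.53, 0, 1.03 and 0.524%. From 6 h on its WT libraries were all above the YBX1-/- ones, and at 12 and 18 h they were the highest of all members in WT.

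**Figure D4:**
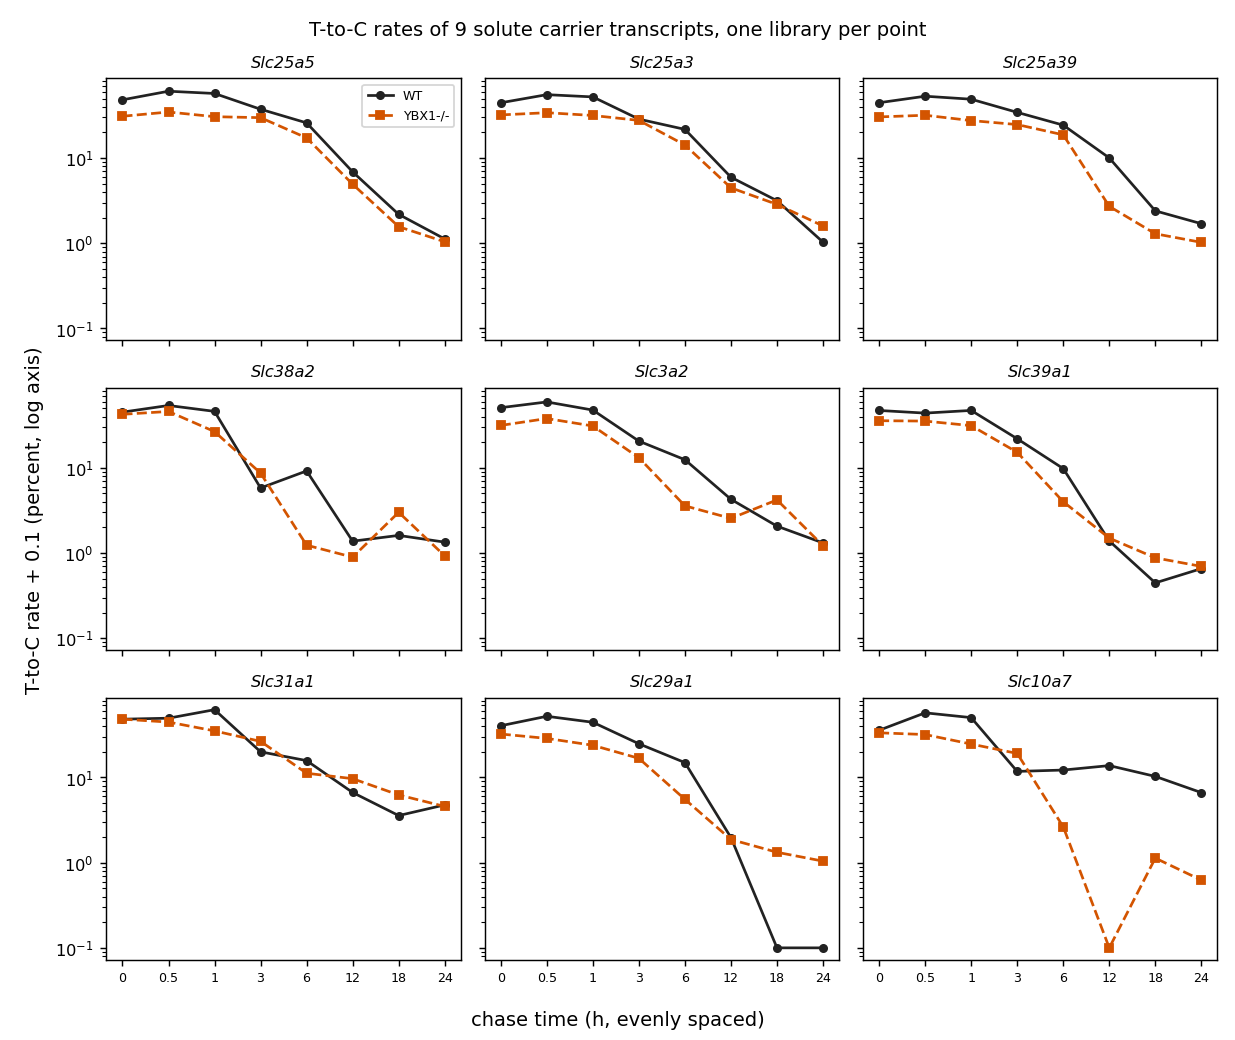
T-to-C rate plus 0.1 (percent, log axis) over the chase for 9 members, with 1 library per point, WT as circles and YBX1-/- as squares. Slc25a5, Slc25a3 and Slc25a39 are nearly flat from 1 to 3 h in YBX1-/-, Slc38a2 is below 10% in both genotypes at 3 h, and Slc10a7 stays above 6% in WT to 24 h.

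By level, the smallest p for a higher rate in YBX1-/- belonged to Slc31a1 (0.37 log2, SE 0.15), Slc25a1 (1.63, SE 0.66), Slc18a2 (1.71, SE 0.95) and Slc25a36 (0.96, SE 0.55), and for a lower rate to Slc10a7 (-1.80, SE 0.78), Slc35e2 (-1.62, SE 0.73), Slc25a39 (-0.47, SE 0.24) and the aromatic amino acid transporter Slc16a10 (-1.0, SE 0.52). All 8 had a limma adjusted p of 0.779. For Slc25a39 and Slc35e2 the rate itself was lower in YBX1-/- at 8 of 8 times, before the library median was subtracted. Without that subtraction the median level difference of all tested genes was -0.34 and that of the members -0.38, with 69 of 87 members below 0. Slc18a2 was at 0% in the WT 0 h library and between 1.20% and 17.7% at 0.5 to 18 h.

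By role, the decay rate difference was above 0 for 10 of 10 tested metal ion transporters, 11 of 18 mitochondrial carriers, 9 of 20 amino acid and peptide transporters and 7 of 14 nucleoside and nucleotide sugar transporters. None of these passed, and the run of metal ion transporters was picked out after the values were seen. Over all tested genes 3887 of 7411 were above 0. The median of the metal ion group was 0.025 log2 per h, and by level 7 of these 10 were above 0 and 3 below.

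**Figure D5:**
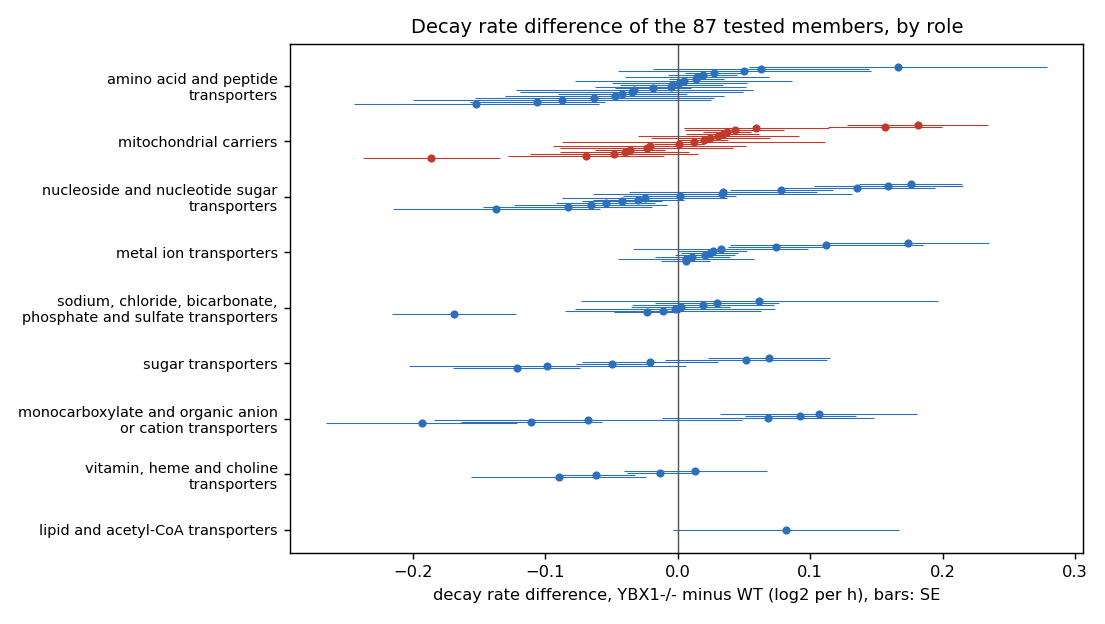
Difference in decay rate (log2 per h, above 0 where loss was slower in YBX1-/-, with SE as bars) of the 87 tested members, 1 point per gene, by role. The 10 tested metal ion transporters all lie above 0, and no point of any role passed the limma threshold over all genes.

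Among the alternatives run, calls of members for either difference appeared only in some that dropped time points. With the chase limited to 0 to 12 h, 4 of 87 tested members lost label faster in YBX1-/-. Of all 7411 tested genes, 133 lost it faster and 135 more slowly. The 4 were the lysosomal amino acid exporter Slc36a1 (-0.46, limma adjusted p 0.0447) and the lysosomal arginine sensor Slc38a9 (-0.45, limma adjusted p 0.0468), with the phosphate importer Slc20a1 (-0.42, limma adjusted p 0.0463) and the ornithine carrier Slc25a15 (-0.32, limma adjusted p 0.0423). All 4 were at 0% in YBX1-/- at 12 h. Without the 12 h time point Slc29a1 (0.19), Slc8a1 (-0.18) and Slc10a7 (-0.16) passed, among 204 of 7411 genes (117 slower and 87 faster in YBX1-/-). Without the 18 h time point Slc25a36 (0.20) passed, among 91 of 7411 genes (65 slower and 26 faster).

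In 3 members the rate stayed under 5% in every library. Slc26a10 (54.0 CPM), of the Slc26 anion transporter family, had rates of 0.288% to 2.06% in WT and 0.104% to 1.06% in YBX1-/-. Slc6a20b (14.9 CPM), of the proline transporter family, had at most 2.50% in any library, and the melanosome exchanger Slc24a5 (9.76 CPM) at most 3.77%. In each of the 3 the interval overlapped an exon of another gene on the opposite strand. For Slc26a10 (chr10:127171511-127172537, minus strand) that gene was B4galnt1, over 69.6% of the interval. For Slc6a20b (chr9:123590800-123594992, minus strand) it was Sacm1l, over 42.9%, and for Slc24a5 (chr2:125088287-125088677, plus strand) it was Myef2, over 100%.

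No source used here states whether counting used the strand, so reads of these genes and of their antisense partners cannot be told apart. Of all 6027 genes with a CPM of at least 5, 52 had a rate under 5% in every library, and 50 of these 52 overlapped an exon on the opposite strand, as 905 of the 6027 did. Among the members 9 of 92 had such an overlap. Those of the 9 with ordinary rates included Slc15a3 (71.8% of the interval, Tmem132a), Slc16a6 (46.0%, Amz2), Slc30a7 (23.1%), Slc8a1 (1.90%) and Slc48a1 (1.47%, Hdac7). Without the 3 members of low rate, the mean difference between Slc25a and other members was 0.15 log2.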

How the data were processed

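The authors deposited 1 table of 86993 intervals with a T-to-C rate per library as a fraction from 0 to 1, and per the file headers also, averaged over the libraries, the CPM of each interval, its T content and a coverage signal on its Ts. What the denominator of the fraction was, and the program that counted conversions, are not given in the sources used here. The submitters' processing notes name CASAVA, HISAT2 2.1.0 and GRCh38, although identifiers and coordinates are mouse GRCm38.

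Of 21177 gene identifiers 21148 matched a symbol. Each gene was represented by its interval of highest mean CPM (ties went to the shortest). Rates were put in percent, and log2(rate + 0.1) was analysed. Genes with a rate above 0 in at least 12 of 16 libraries were tested, at any CPM (7411). limma 3.58.1 (R 4.3.3) with a trend fitted time point as a factor, genotype and genotype by hours after subtraction of the library median; loss per genotype was a line over hours, uncentred. Benjamini-Hochberg adjusted p under 0.05 over all tested genes was the threshold. The fits were tested on simulated data. Floor half-lives used scipy 1.17.1. With 1 library per genotype and time, p-values measure scatter around the fitted course, not between cultures. The depth per library is unknown. The values of some members are not reported here.

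The members and lists were chosen with earlier results of these data known. Named members were a list of well-known carriers, the 4 smallest p per direction and comparison and the 4 highest CPM per group. Also named were those nearest the CPM minimum and the extremes of half-life. These extremes were taken among tested members, without those of low rate, with fits stable within 3-fold. Alternatives covered the added value, the filter on low rates, centring, time points, the interval used and the CPM minimum.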

Additional observations from a re-analysis of the deposited data

Results flagged for a closer look

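Slc7a7, the light chain that pairs with Slc3a2 to exchange cationic and neutral amino acids, lies below the CPM minimum at 4.36 CPM and is no member, but its genotypes differed in the test of the difference itself. Its WT rates were 36.7, 51.5, 47.7, 18.6, 10.0, 0.671, 0.781 and 0%, and its YBX1-/- rates were 25, 17.6, 25, 20, 6.25, 5.56, 6.25 and 2.74%. The decay rate difference was 0.23 log2 per h (SE 0.030, limma adjusted p 0.0462), slower in YBX1-/-. The YBX1-/- library was higher than WT at 3, 12, 18 and 24 h. Over 19 alternatives the difference ranged from 0.15 to 0.32 and the limma adjusted p from 0.0212 to 0.965, and it no longer passed in 13.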

How the results depend on the processing

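The number of genes with a decay rate difference, 8, was 1 with an added value of 0.01 or 0.5 or a filter of 8 libraries. It was 0 with a rate above 0 in at least 1 library (13424 genes), on 0 to 6 h or without the YBX1-/- 0 h library. It was 2 with the longest interval, 13 without the time factor, 268 on 0 to 12 h, and 0 to 204 when a time point was left out. For members, 0 became 4 on 0 to 12 h and 0 to 3 when a time point was left out. Genes with a level difference, 0, became 3 with the filter of 8 libraries and 2 with that of 1 library. With rates above 0 in all 16 libraries 32 members were tested, of which 32 fell in WT and 31 in YBX1-/-.

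The Slc25a difference in level (0.20) was 0.13 to 0.23 when a time point was left out. With no CPM minimum it was 3.89, over 46 Slc25a genes and 318 others, most of them under 5 CPM. A rate of 0 enters as the added 0.1, and the part of such rates in the values with no CPM minimum was not tested. The slope difference in WT (-0.0192) was -0.127 with no CPM minimum, -0.0324 with an added value of 0.01, -0.000699 on 0 to 12 h, 0.0385 on 0 to 6 h, 0.0105 at a CPM of at least 20, and -0.0265 to 0.0128 when a time point was left out. In YBX1-/- (-0.00143) it was -0.137, 0.00179 at a CPM of at least 10, 0.0172 at 20, -0.0160 as a mean, 0.000283 without the 3 members of low rate, 0.00334 on 0 to 12 h, 0.182 on 0 to 6 h, and -0.00801 to 0.00849. The kept share of Slc25a minus others, in percentage points and with alternatives chosen after seeing the data, was -0.811 in WT, but 1.82 with 6 h alone, 1.02 with 0 h in the base, 5.14 at a CPM of at least 10 and 17.3 at 20. In YBX1-/- it was 8.01, 4.45 with 0 h in the base, 20.6 and 30.3. On 0 to 6 h the decay difference of Slc29a1 was -0.0311, of Slc25a36 -0.00429 and of Slc37a2 0.17, which on 0 to 12 h was 0.0575. The causes were not tested.

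The fits paired the 2 libraries of each chase time through the time factor, and the labels give no replicate numbers to pair by. Without replicates and without depth per library, rates near 0 at 12 to 24 h limit every slope.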

Other observations

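Other membrane transport genes gave the following values. Of 17 listed genes for mitochondrial transport outside Slc25a (voltage-dependent channels, calcium uniporter, pyruvate carrier, sideroflexins and others), 14 were tested and 0 differed between genotypes in decay rate or level in limma. The 12 with a CPM of at least 5 kept a median of 37.1% of their label in WT and 50.0% in YBX1-/-. Vdac1 (54.9 CPM) kept 58.8% in WT, and Mpc2, a subunit of the pyruvate carrier (18.4 CPM), kept 82.9%. Of 46 ABC transporters 13 were tested and 0 differed in limma. The 12 with a CPM of at least 5 kept 32.2% and 37.6%.

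Members whose interval held ATTTA (66 of 89) kept a median of 31.0% in WT and 28.7% in YBX1-/-, and the 23 without it kept 40.4% and 43.2%. The intervals with ATTTA were longer, with a median of 2336 bases against 590. Members with TATTTAT (33) kept 27.6% and 28.9%, and the 56 without it 32.3% and 36.4%. The 22 with TGTANATA kept 27.4% in WT and 29.4% in YBX1-/-, and the 67 without it 32.3% and 30.4%. With GGACT, 71 members kept 31.2% and 32.9%, and the 18 without it 37.4% and 26.5%. With AATAAA, 75 members kept 32.1% and 30.3%, and the 14 without it 28.8% and 28.1%. All these splits were made after the rates were seen, and the part of interval length in them was not tested.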
